A study of Homo sapiens with 12 samples.

Results

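The genes described here are angiomotin (AMOT), its relatives AMOTL1 and AMOTL2, and 7 genes of the Hippo pathway: YAP1, TEAD1, LATS1, LATS2, STK3, STK4 and MOB1A. Every probe of the deposited table of array values that is annotated to these 10 symbols was taken. Probes were found for 7 of the 10 genes, AMOT, AMOTL2, YAP1, LATS2, STK3, STK4 and MOB1A, and they number 8 of the 15025 probes in the table. MOB1A has 2 probes and the other genes have 1 each. The table has no probe under the symbols AMOTL1, TEAD1 and LATS1, so nothing was measured for these 3. AMOT was chosen from its place among the largest rises in one of the pull-downs described below, and the other genes were chosen by pathway with earlier results of these data known. Their pull-down values are therefore a description. The fit across all genes covers the pull-downs too, and nothing is read from its calls of these genes there. Where such calls are given, kept or lost below, they describe the fit and test nothing about the genes. Only the comparison between the input samples is read as a test of them. That comparison was not used in the choice. It shares input arrays with the pull-down difference that chose AMOT, so for AMOT it is not fully independent of the choice.

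The samples come from HEK293T, a line derived from human embryonic kidney that expresses SV40 large T antigen, grown as a bulk culture. Cells were transfected with 200 pmol of a synthetic, biotin-carrying microRNA duplex, miR-3118-3p or miR-4307-3p, with the reagent HiPerFect, and were collected 24 h later. In the pull-down samples, the microRNA and the RNA bound to it were captured on streptavidin beads, and each microRNA also has input samples. The 12 Illumina bead arrays form 4 groups of 3: miR-3118-3p pull-down, miR-3118-3p input, miR-4307-3p pull-down and miR-4307-3p input. All 4 groups received a duplex, so none of them shows cells without one, and all come from a single cell line. The labels do not say that the replicates were separate cultures, and the p-values therefore cover only the spread among these arrays, part or all of which may be technical.

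The Hippo pathway is a kinase cascade that limits organ size and cell growth. The MST kinases, encoded by STK3 and STK4, phosphorylate and activate the LATS kinases with the help of MOB1 adaptors, and LATS kinases phosphorylate the transcriptional coactivator YAP. Phosphorylated YAP is held in the cytoplasm by 14-3-3 proteins or degraded, while YAP free of phosphate enters the nucleus and drives transcription with TEAD factors. Angiomotins are junction and actin-binding scaffolds that bind YAP, keep it out of the nucleus and promote the action of LATS on it. MicroRNAs pair with mRNAs mainly through the seed, the stretch of bases near their 5′ end.

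The sequences of both microRNAs are shown because the pull-downs differ in this molecule, and their seeds, bases 2 to 8, are in capitals. They were taken from RefSeq (GRCh38.p14), where the mature names carry no arm. Each lies in the 3′ arm of its hairpin.
miR-3118-3p: uGUGACUGcauuaugaaaauucu
miR-4307-3p: aAUGUUUUuuccuguuucc
The miR-3118-3p sequence is 23 bases long and is encoded by 4 gene copies, 3 on chromosome 15 and 1 on chromosome 21 (minus strand, chr21:13644784-13644806). The miR-4307-3p sequence is 19 bases long and is encoded on chromosome 14 (plus strand, chr14:26908697-26908715). The seeds carry the same base at 3 of 7 positions. A target site for each seed would read CAGTCAC and AAAACAT in the DNA letters of the mRNA. Transcript sequences were not used here, so sites in the mRNAs of the genes below were not searched for.

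The values are on a log2 scale, and the sources used here do not give whether it is a plain log2 or a variance-stabilised scale. Array medians lay between 7.53 and 7.59, so a gene is higher or lower only against the rest of the RNA measured. Arrays correlated with those of their own group at 0.988 or more, except in the miR-3118-3p pull-down, where the correlations ran from 0.963 to 0.983; replicate 1 of that group stood apart, with the lowest array weight of the 12 arrays (0.198). Genes there had a median SD of 0.230, against 0.128 to 0.135 elsewhere. Of 6 marker genes of the HEK293 line, 4 have a probe (NEFM, NEFL, INA and LIN28B). Of 11 markers of other cells, ALB and COL1A1 have one. Their mean input values lay between the 5.22 and 26.2 percentiles of all probes, against 28.7 to 89.2 for the HEK293 markers. In a bulk culture, fewer cells of a kind and less RNA per cell cannot be told apart. Groups were compared with limma over 9581 genes, and a gene was called at a Benjamini-Hochberg adjusted p under 0.05. Errors of differences are the standard error (SE) of that fit, with n = 3 arrays per group, and precision is limited by there being so few arrays.

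AMOT mRNA stood above its input level after pull-down with miR-3118-3p. With miR-4307-3p the difference was far smaller, and the groups overlapped. In the miR-3118-3p pull-down its values were 10.83, 11.84 and 12.14 in replicates 1, 2 and 3, against 9.23, 10.18 and 10.33 in the matching input. All 3 pull-down arrays lay above all 3 inputs, with a gap of 0.49 between the lowest pull-down and the highest input. In the miR-4307-3p pull-down the values were 9.73, 10.37 and 10.24, against 9.48, 10.20 and 10.05 in the input. Replicate 1 was the lowest array of its group in all 4 groups. The group means were 11.6 ± 0.69 in the miR-3118-3p pull-down, 9.91 ± 0.59 in its input, 10.1 ± 0.34 in the miR-4307-3p pull-down and 9.91 ± 0.38 in its input (SD, n = 3 each). The last 3 of these overlapped one another, and the miR-3118-3p pull-down stood above them all.

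**Figure D1:**
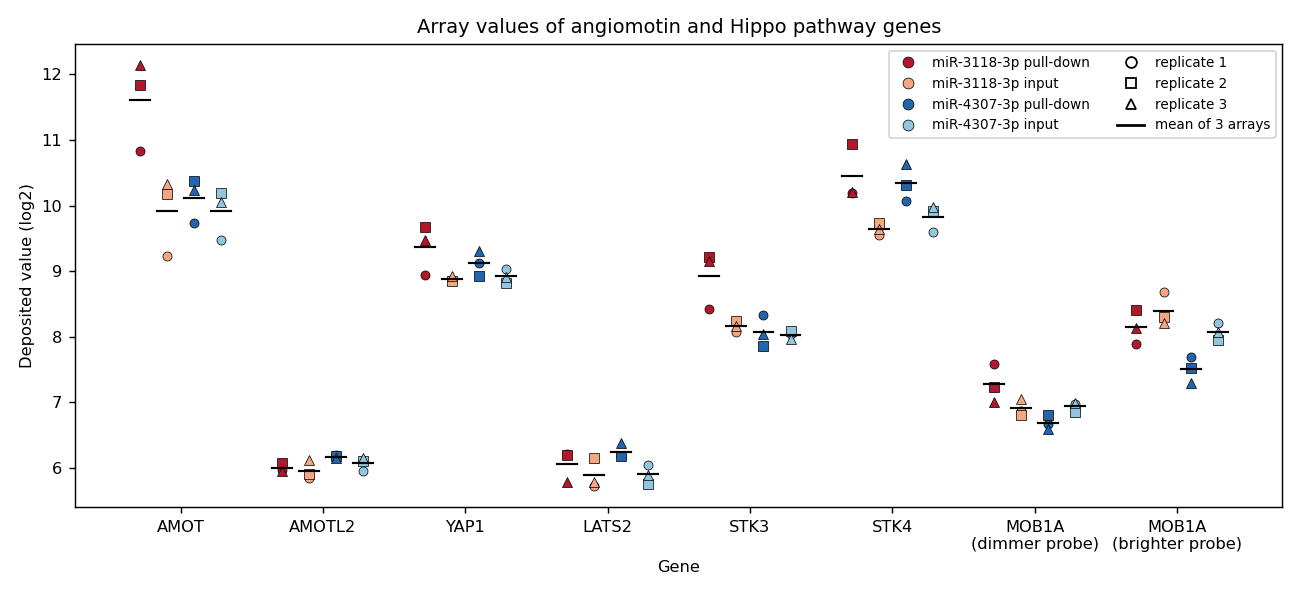
Deposited log2 values of the 7 measured genes (8 probes) on the 12 arrays. Each point is an array, coloured by group and shaped by replicate number, and each line is the mean of 3 arrays. AMOT lies between 10.83 and 12.14 in the miR-3118-3p pull-down, against between 9.23 and 10.37 on the other 9 arrays.

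The pull-down minus input difference of AMOT was 1.69 ± 0.32 with miR-3118-3p, which was the 8th highest of 9581 genes, and 0.20 ± 0.32 with miR-4307-3p. Taken by replicate number, the differences were 1.59, 1.66 and 1.81 with miR-3118-3p and 0.25, 0.17 and 0.19 with miR-4307-3p, so all were positive. With each pull-down blocked with its own input the miR-4307-3p value was 0.20 with an SE of 0.12, and it was not past the threshold. These differences were far more alike than the arrays themselves, whose values spanned 1.32 in the miR-3118-3p pull-down, against 1.10 in its input. The difference between the enrichments, miR-4307-3p minus miR-3118-3p, was -1.49 ± 0.45. It was not past the fit's threshold as planned, and 7 of the 20 other settings put it past, among them both fits that carry the replicate number, where its SE fell to 0.21 and 0.16. Across those 20 settings it lay between -1.87 and -1.15. It was -1.87 without the array that stood apart, miR-3118-3p pull-down replicate 1, and -1.69 without miR-3118-3p input replicate 3, and these settings are among the 7. Over 21 other settings the AMOT difference with miR-3118-3p lay between 1.35 and 2.08, the highest without the array that stood apart. These values chose the gene, so they describe it and test nothing.

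AMOTL2, the other angiomotin with a probe, showed no such pattern. Its values were 5.96, 6.08 and 5.96 in the miR-3118-3p pull-down, against 5.85, 5.92 and 6.12 in the input. With miR-4307-3p they were 6.19, 6.18 and 6.15 in the pull-down and 5.96, 6.11 and 6.16 in the input. The groups overlapped for both microRNAs. The differences were 0.04 ± 0.12 and 0.10 ± 0.12, with 95% intervals of -0.21 to 0.29 and -0.15 to 0.35. The gene was dim in every group, with means between the 6.59 and 15.0 percentiles of all probes.

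Both MST kinases were higher in the miR-3118-3p pull-down. STK3 (MST2) read 8.42, 9.22 and 9.15 there and 8.08, 8.25 and 8.17 in the input. All pull-down arrays were above all inputs, and replicate 1 was the lowest of the pull-downs. With miR-4307-3p its values were 8.34, 7.85 and 8.04 in the pull-down and 8.04, 8.09 and 7.97 in the input, and the groups overlapped. STK4 (MST1) read 10.19, 10.94 and 10.21 in the miR-3118-3p pull-down, against 9.55, 9.73 and 9.64 in its input. In the miR-4307-3p pull-down STK4 read 10.07, 10.31 and 10.63, against 9.59, 9.92 and 9.98 in the input. For STK4 the pull-downs therefore lay above the inputs with both microRNAs, whereas STK3 was separated with miR-3118-3p alone.

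The differences were 0.76 ± 0.18 for STK3 and 0.81 ± 0.19 for STK4 with miR-3118-3p, and 0.05 ± 0.18 and 0.51 ± 0.19 with miR-4307-3p. Over the 21 other settings the miR-3118-3p differences lay between 0.62 and 1.02 for STK3 and between 0.56 and 0.94 for STK4, again highest without the array that stood apart. With miR-4307-3p, STK4 was not past the threshold in the planned fit. It was past it with the replicate number as a block (SE 0.16) or with a block for each pull-down and its own input (SE 0.14), and the numbers are taken to pair the arrays of this microRNA. The difference between the enrichments was -0.72 ± 0.26 for STK3 and -0.30 ± 0.27 for STK4, neither past the threshold. For STK3 it was past it in 3 of 20 other settings, 1 of them without miR-3118-3p pull-down replicate 1, at -0.97.

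LATS2 is the LATS kinase with a probe, and it was dim. It read 6.22, 6.20 and 5.78 in the miR-3118-3p pull-down, against 5.72, 6.15 and 5.79 in the input, with overlap. In the miR-4307-3p pull-down it read 6.19, 6.18 and 6.38, against 6.05, 5.76 and 5.90 in the input. These last groups did not overlap. The differences were 0.18 ± 0.15 and 0.35 ± 0.15, and neither was past the threshold, although the miR-4307-3p value was past it in 2 of 20 other settings. Its group means lay between the 3.55 and 17.6 percentiles of all probes.

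MOB1A, the adaptor that binds and activates LATS kinases, was the gene whose mRNA was lower in a pull-down. In the miR-4307-3p pull-down its brighter probe read 7.69, 7.53 and 7.29, against 8.21, 7.95 and 8.07 in the input. With miR-3118-3p it read 7.89, 8.40 and 8.14 in the pull-down and 8.68, 8.30 and 8.21 in the input. The miR-4307-3p pull-downs lay below all their inputs, while the miR-3118-3p groups overlapped. For miR-4307-3p the dimmer probe read 6.67, 6.82 and 6.60 in the pull-down and 6.98, 6.85 and 7.00 in the input, again apart. With miR-3118-3p it read 7.59, 7.23 and 7.01 against 6.87, 6.81 and 7.06.

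The brighter probe's difference was -0.57 ± 0.16 with miR-4307-3p and -0.25 ± 0.16 with miR-3118-3p. The dimmer probe gave -0.25 ± 0.14 and 0.37 ± 0.14, so the probes share the direction with miR-4307-3p and differ in it with miR-3118-3p. RefSeq lists 2 pseudogenes named for MOB1A and 3 for YAP1, and whether a probe also reads them was not tested. The MOB1A call with miR-4307-3p was lost without replicate 2 or 3 of that pull-down (-0.58 and -0.47) and without replicate 1 or 3 of its input (-0.51 and -0.57).

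YAP1, the coactivator at the end of the cascade, was also higher in the miR-3118-3p pull-down. It read 8.95, 9.67 and 9.47 there and 8.86, 8.86 and 8.93 in the input. The lowest pull-down, replicate 1, was barely above the highest input. With miR-4307-3p it read 9.13, 8.92 and 9.30 in the pull-down and 9.03, 8.82 and 8.91 in the input, and the groups overlapped. The differences were 0.48 ± 0.16 and 0.20 ± 0.16, and the difference between the enrichments was -0.28 ± 0.23. The miR-3118-3p value was past the threshold in 10 of 21 other settings, and without the array that stood apart it was 0.69. The call was lost with the spread of the 6 miR-3118-3p arrays alone. It was lost when miR-3118-3p pull-down replicate 2 or 3 was left out (0.33 and 0.43) or replicate 1, 2 or 3 of its input (0.47, 0.47 and 0.50). It was also lost, with its value at 0.48, without miR-4307-3p pull-down replicate 1 or 3 or any array of the miR-4307-3p input, which enter through the shared spread.

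Counted together, 4 of the 7 measured genes (AMOT, STK3, STK4 and YAP1) were called higher with miR-3118-3p and 0 lower, where 12.7% of all 9581 genes were called higher and 10.9% lower. With miR-4307-3p, 0 were called higher and 1, MOB1A, lower, beside 8.04% and 6.11% of all genes. For the difference between the enrichments 0 of 7 were called by limma, beside 4.73% of all genes higher and 2.86% lower, and AMOT and STK3 had an unadjusted p under 0.05. The choice of the genes used these comparisons, so nothing is read from the counts. The median difference over the 7 genes was 0.48 with miR-3118-3p and 0.20 with miR-4307-3p, and over all genes it was -0.00 and -0.02. Both comparisons rest on their own inputs, and the difference between them contains all 4 groups.

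**Figure D2:**
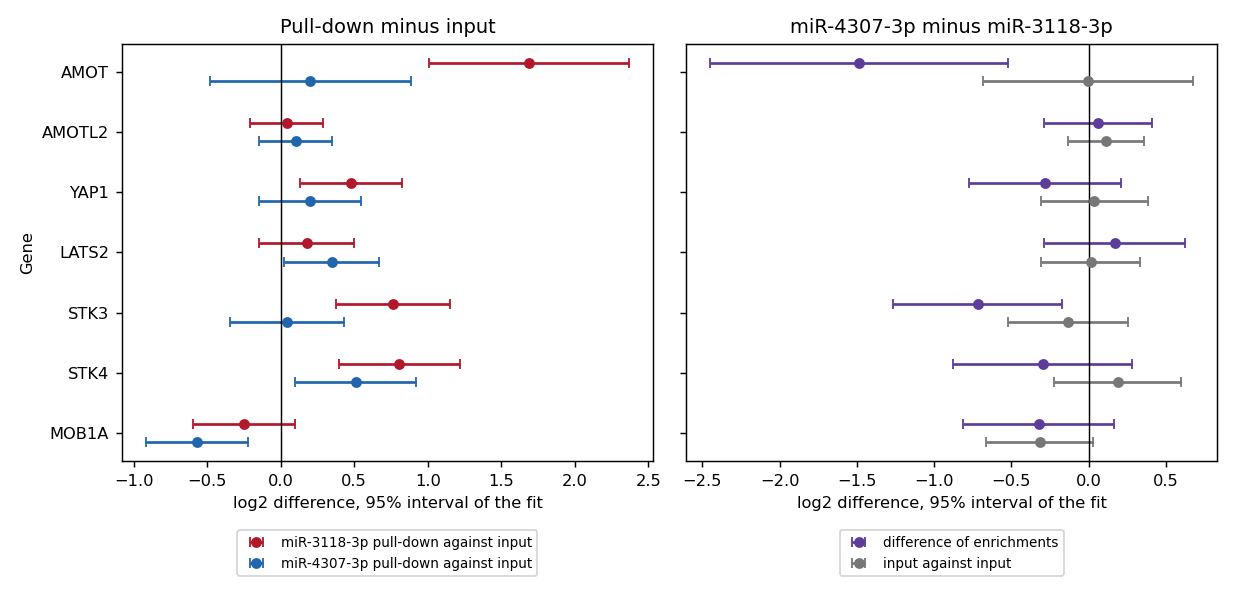
Log2 differences of the 7 genes with the 95% intervals of the fit across all genes, as a description. The left panel shows pull-down minus input for each microRNA, and the right panel shows miR-4307-3p minus miR-3118-3p for the enrichments and for the inputs; MOB1A is its brighter probe. AMOT with miR-3118-3p is at 1.69 and all 7 input intervals include 0.

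The inputs ask whether the cells themselves differed in these mRNAs between the transfections, and no gene passed that test. By limma, 0 of the 7 genes passed the threshold between the inputs, and 0 had an unadjusted p under 0.05. Over all genes, 0% were called higher and 0% lower, with 160 of 9581 at an unadjusted p under 0.05. For AMOT the difference, miR-4307-3p input minus miR-3118-3p input, was -0.00 ± 0.32 (limma adjusted p = 1.00), and its 95% interval ran from -0.69 to 0.68. The largest was that of MOB1A, at -0.32 ± 0.16 for the brighter probe, with an interval of -0.66 to 0.03 (limma adjusted p = 1.00), while the dimmer probe gave 0.03 ± 0.14. The other 5 genes lay between -0.13 and 0.19. The intervals bound these differences and do not show that the inputs were equal.

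The wider pathway was followed through 6 lists with 128 genes, of which 79 were measured. These lists were drawn up with earlier results of these data known. Their calls and counts in the pull-downs and in the difference between the enrichments are therefore a description. With miR-3118-3p, 20 of the 79 rose (25.3%) and 4 fell (5.06%), where 12.7% and 10.9% of all genes did. Their median was 0.13. With miR-4307-3p, 4 rose (5.06%) and 1 fell (1.27%), beside 8.04% and 6.11% of all genes, and the median was 0.06. Between the inputs, 0 of 79 passed limma's threshold and 0 had an unadjusted p under 0.05. The count of 24 with miR-3118-3p was 15 without replicate 2 of the pull-down, 15 without replicate 2 of the input, 14 without replicate 3 of the input and 36 without replicate 1 of the pull-down. With the spread of the 6 miR-3118-3p arrays alone it was 10, and of the genes named below, the calls of TAOK2, SLMAP, PPP2R1B, PALS1, PTPN14, SCRIB, NEDD4, CSNK1D, YWHAB and TEAD4 were lost. The calls of SCRIB and TEAD4 were also lost with cyclic loess and with array weights. With each pull-down blocked with its own input, further genes passed with miR-3118-3p. MAP4K4, STRN4, PRKCI, TJP1, CTNNA1, ITCH, USP9X and YWHAE were higher, and WWC1 and PARD6A were lower. Of these, MAP4K4, STRN4, PRKCI, TJP1, USP9X and PARD6A are named after their values were seen. The count of 5 with miR-4307-3p was 10 with each pull-down blocked with its own input, 13 with the spread of its 6 arrays alone and 24 with array weights. It was 12 and 8 on leaving out pull-down replicates 1 and 2 of miR-3118-3p, and 3 without miR-4307-3p pull-down replicate 3 or replicate 1 or 2 of its input. The larger spread of the pull-down with miR-3118-3p enters both comparisons through the shared fit, and its part in these counts was not tested beyond these settings. The shares of all genes called in these other settings are not given here. The shifts in count are therefore not read as a trait of the lists.

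**Figure D3:**
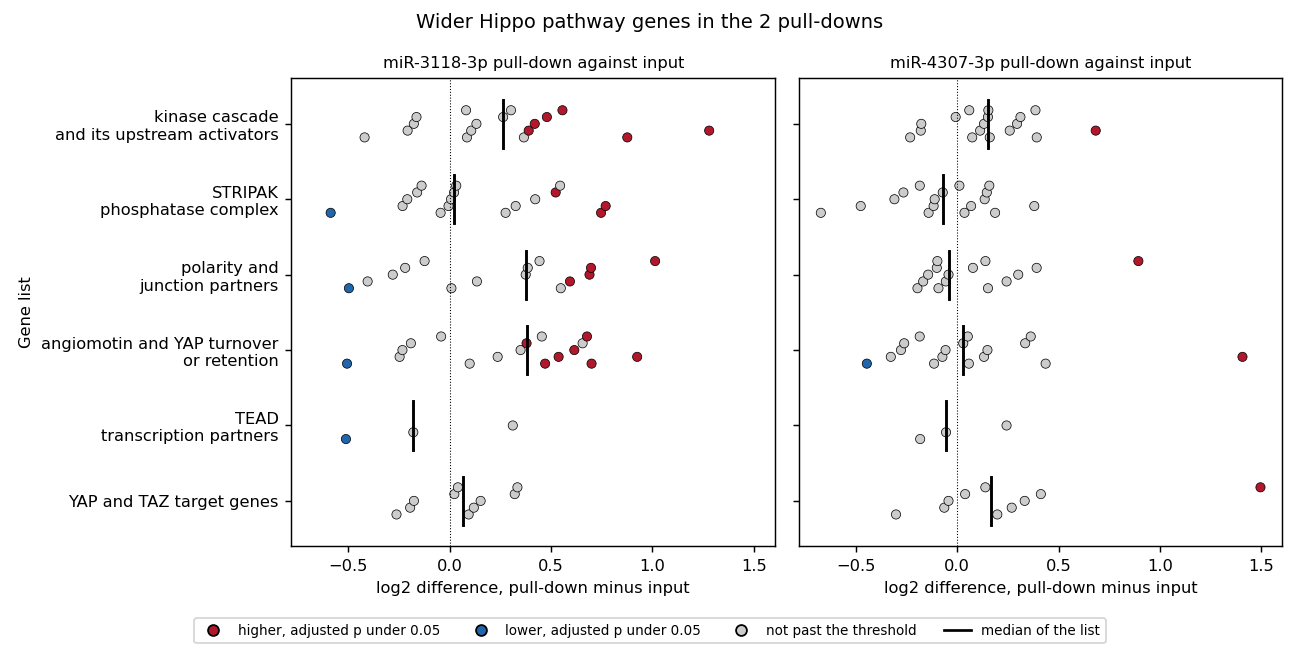
Log2 difference, pull-down minus input, of the 79 measured genes in the 6 lists, with miR-3118-3p on the left and miR-4307-3p on the right. Each point is a gene, coloured where the limma adjusted p is under 0.05, and each line is the median of the list. The list medians run from -0.18 to 0.38 on the left and from -0.07 to 0.17 on the right.

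Of the kinase cascade and its upstream activators, 17 of 23 genes were measured. With miR-3118-3p, 6 rose (35.3%) and 0 fell (median 0.26), beside 12.7% and 10.9% of all genes. FRMD6, a membrane-associated protein placed upstream of the kinases, read 8.71, 9.22 and 9.16 in the miR-3118-3p pull-down, against 7.78, 7.61 and 7.86 in the input. Its pull-downs lay well above the inputs, by 1.28 ± 0.14 (limma adjusted p = 0.000103), and a second probe gave 1.38 ± 0.11. With miR-4307-3p it read 7.37, 7.51 and 7.30 against 7.76, 7.57 and 7.55, lower in the pull-down by a difference of -0.23 ± 0.14 that did not pass the test. TAOK1, a kinase that activates the MST kinases, rose by 0.88 ± 0.22 (limma adjusted p = 0.0101), and its relative TAOK2 rose by 0.48 ± 0.15 (0.0266). MOB1B, the close relative of MOB1A, rose by 0.56 ± 0.14 (limma adjusted p = 0.00939), a direction opposite to the value of MOB1A's brighter probe. The TAOK1 call was lost without miR-3118-3p input replicate 3 (0.71), and the TAOK2 call without replicate 1 of the pull-down (0.39) or replicate 2 or 3 of the input (0.49 and 0.40).

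With miR-4307-3p, 1 gene of this list rose (5.88%) and 0 fell, beside 8.04% and 6.11% of all genes. It was RASSF6, a scaffold that binds the MST kinases, at 0.68 ± 0.20 (limma adjusted p = 0.0281, median of the list 0.15). That call was lost on leaving out miR-4307-3p pull-down replicate 1, 2 or 3 or replicate 1 or 2 of its input, at 0.57 to 0.70. MOB1B was at 0.39 ± 0.14 with miR-4307-3p, short of the threshold, and passed it with each pull-down blocked with its own input (limma adjusted p = 0.0373). SAV1, the scaffold of the MST kinases, was at 0.11 ± 0.14 and -0.18 ± 0.14 with the respective microRNAs. WWC1 (KIBRA), an upstream activator, was at -0.42 ± 0.15 with miR-3118-3p (limma adjusted p = 0.0524) and 0.15 ± 0.15 with miR-4307-3p. Its miR-3118-3p value passed with the replicate block (limma adjusted p = 0.0467) and with each pull-down blocked with its own input (limma adjusted p = 0.0303).

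The STRIPAK complex is a phosphatase assembly that removes phosphate from the MST kinases. With miR-3118-3p, 3 of its 17 measured genes (19 listed) rose and 1 fell, and the median was 0.02. These shares, 17.6% and 5.88%, stand beside 12.7% and 10.9% of all genes. MOB4 rose by 0.77 ± 0.17 (limma adjusted p = 0.00612), STRIP2 by 0.75 ± 0.17 (0.00645) and SLMAP, which joins the complex to the MST kinases, by 0.52 ± 0.17 (0.0349). PPP2R1B, a scaffold subunit of the phosphatase, fell by 0.59 ± 0.16 (limma adjusted p = 0.0168). Probes disagreed in this list: 3 further MOB4 probes gave -0.09, 0.52 and 0.56 with none past the threshold, and a second PPP2R1B probe gave -0.16. With the mean of its probes MOB4 was at 0.44 and no longer called. The SLMAP call was lost without miR-3118-3p pull-down replicate 2 or 3 (0.36 and 0.45) and without replicate 1, 2 or 3 of its input (0.52, 0.58 and 0.47), and that of PPP2R1B without replicate 2 or 3 of the input (-0.59 and -0.58). With miR-4307-3p 0 of the 17 were called by limma, where 8.04% of all genes rose and 6.11% fell. Of the 17, 3 had an unadjusted p under 0.05, and the median was -0.07. PPP2R1B was then at -0.48 ± 0.16, and with each pull-down blocked with its own input it passed (limma adjusted p = 0.0267). PDCD10, a subunit of the complex named here after its values were seen, was at -0.67 ± 0.24 with miR-4307-3p, its pull-downs below all its inputs, and at 0.42 ± 0.24 with miR-3118-3p. With the same block the miR-4307-3p value passed (limma adjusted p = 0.0317). PDCD10 has 3 probes, and these values are those of the brightest, with the others not given here.

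Of the polarity and junction partners, which hold angiomotins and YAP at cell contacts, 15 of 34 were measured. With miR-3118-3p, 4 rose (26.7%) and 1 fell (6.67%), with a median of 0.38, beside 12.7% and 10.9% of all genes. LIN7C, a PDZ protein of the PALS1 complex, read 7.87, 8.18 and 7.92 in the pull-down and 6.63, 7.02 and 7.27 in the input. The groups were clearly apart, by 1.01 ± 0.15 (limma adjusted p = 0.000476), and a second probe gave 0.65 ± 0.22. PTPN14, a phosphatase that binds YAP, rose by 0.70 ± 0.20 (limma adjusted p = 0.0219), PALS1 by 0.69 ± 0.19 (0.0166) and MPDZ, a scaffold with many PDZ domains, by 0.59 ± 0.12 (0.0033). MPDZ was dim, with a mean of 6.19 in the miR-3118-3p input. SCRIB, a scaffold of the basolateral membrane, fell by 0.50 ± 0.15 (limma adjusted p = 0.0269). The calls of PTPN14 and PALS1 were lost without replicate 2 of the pull-down (0.56 and 0.47) or replicate 1 of the input (0.51 and 0.62), and that of SCRIB without replicate 2 of the pull-down (-0.39) or replicate 2 or 3 of the input (-0.48 and -0.45). With miR-4307-3p the median of the list was -0.04, and CTNNA1, the alpha-catenin of adherens junctions, was the 1 gene to rise, by 0.89 ± 0.21 (limma adjusted p = 0.00871). That is 6.67% of the list, and 0 fell, beside 8.04% and 6.11% of all genes. A second CTNNA1 probe gave 0.41 ± 0.27, and the call was lost without miR-4307-3p input replicate 3 (0.69) and with the mean of the probes (0.65).

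The list of genes that turn over or retain angiomotins and YAP had 17 of 20 genes measured. With miR-3118-3p 7 rose (41.2%) and 1 fell (5.88%), with a median of 0.38, beside 12.7% and 10.9% of all genes. Those that rose include 14-3-3 genes and ubiquitin ligases, but not all of either family. The 14-3-3 genes YWHAH (-0.23 ± 0.14) and YWHAQ (-0.04 ± 0.13) were negative, as were the ligases WWP2 (-0.25 ± 0.12) and RNF146 (-0.19 ± 0.14). None of these was past the threshold. YWHAZ, a 14-3-3 protein, read 12.28, 12.51 and 12.14 in the pull-down and 11.30, 11.41 and 11.45 in the input, without overlap, and rose by 0.92 ± 0.15 (limma adjusted p = 0.000743). YWHAB, another 14-3-3 protein, rose by 0.61 ± 0.21 (limma adjusted p = 0.0434), with overlapping groups and a second probe at 0.61 ± 0.12. The ligase subunit FBXW11 rose by 0.70 ± 0.17 (limma adjusted p = 0.00756), NEDD4L by 0.68 ± 0.12 (0.00171) and NEDD4 by 0.47 ± 0.13 (0.0141); NEDD4-family ligases ubiquitinate angiomotins. ITCH, of the same family, was at 0.45 ± 0.17 and did not pass in the planned fit (limma adjusted p = 0.0602). ITCH passed with the replicate block (limma adjusted p = 0.0251) and with each pull-down blocked with its own input (limma adjusted p = 0.0133). NEDD4 and ITCH were dim, with means of 6.17 and 6.45 in the miR-3118-3p input. CSNK1D, a kinase that marks YAP for degradation, fell by 0.51 ± 0.14 (limma adjusted p = 0.0177), and its second probe, at -0.36 ± 0.14, did not pass.

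The YWHAB call was lost without miR-3118-3p pull-down replicate 2 or 3 (0.33 and 0.61), without replicate 1 or 3 of its input (0.52 and 0.58) and without any 1 of the 6 miR-4307-3p arrays (0.61). The calls of NEDD4 and CSNK1D were lost without miR-3118-3p input replicate 2 (0.43 and -0.44). With miR-4307-3p the median of the list was 0.03, with 1 rise and 1 fall. Each is 5.88% of the list, beside 8.04% and 6.11% of all genes. These counts use the brightest probe of each gene. For YWHAB that probe was at 0.06 ± 0.21, while its second probe was at 0.40 ± 0.12 and past the threshold in the fit of every probe. YWHAE, a 14-3-3 protein, read 10.05, 10.64 and 10.93 in that pull-down and 8.79, 9.30 and 9.30 in the input, and rose by 1.41 ± 0.23 (limma adjusted p = 0.000632). Its second probe gave -0.04 ± 0.20, so the probes disagree, and the mean of both was 0.68. With miR-3118-3p these probes went opposite ways, at 0.66 ± 0.23 and -0.92 ± 0.20. The first was short of the threshold in the planned fit. It passed with the replicate block (limma adjusted p = 0.0304) and with each pull-down blocked with its own input (limma adjusted p = 0.00484). RefSeq lists 7 pseudogenes named for YWHAE, 10 for YWHAZ and 2 for YWHAB, and their part in these values was not tested. YWHAZ was at 0.44 ± 0.15 with miR-4307-3p and overlapped its input, and it passed the test with the replicate block (limma adjusted p = 0.0358) and with each pull-down blocked with its own input (limma adjusted p = 0.0222). RNF146, the ligase that degrades angiomotins together with tankyrase, fell by 0.45 ± 0.14 (limma adjusted p = 0.0498). That call was kept in 10 of 21 other settings and was lost on leaving out any 1 of the 3 miR-3118-3p inputs (-0.45), any 1 of the 3 miR-4307-3p inputs (-0.40, -0.46 and -0.48 without replicates 1, 2 and 3) or miR-4307-3p pull-down replicate 1 or 3 (-0.43 and -0.37).

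Downstream of YAP, TEAD proteins and the target genes were listed apart. Of the TEAD partners 3 of 11 were measured, with 0 rises and 1 fall with miR-3118-3p (median -0.18), where 12.7% of all genes rose and 10.9% fell, and 0 calls by limma with miR-4307-3p (median -0.05; 0 at an unadjusted p under 0.05). TEAD4 fell by 0.51 ± 0.17 with miR-3118-3p (limma adjusted p = 0.0353), but a second probe gave 0.04 ± 0.14. Its call was lost with the mean of the probes (-0.24), without replicate 2 or 3 of the pull-down (-0.42 and -0.51) or replicate 1 or 3 of the input (-0.46 and -0.44). TEAD2 was at -0.18 ± 0.14 with both. Of 21 YAP and TAZ target genes 10 were measured, and with miR-3118-3p 0 were called by limma (median 0.07; 1 at an unadjusted p under 0.05). With miR-4307-3p 1 of the 10 rose and 0 fell, beside 8.04% and 6.11% of all genes. The targets used most often as readouts, CCN1 and CCN2, were at 0.09 ± 0.18 and 0.33 ± 0.23 with miR-3118-3p and at -0.06 ± 0.18 and -0.04 ± 0.23 with miR-4307-3p. ANKRD1, a target that encodes a cardiac ankyrin repeat protein, was the 1 that rose with miR-4307-3p, and the median of the list was 0.17. It read 10.40, 10.10 and 10.08 in that pull-down and 9.14, 8.38 and 8.58 in its input, apart by 1.50 ± 0.18 (limma adjusted p = 3.26e-05). In the miR-3118-3p pull-down it read 8.27, 8.57 and 8.53, against 8.84, 8.48 and 8.62, with a difference of -0.20 ± 0.18. With each pull-down blocked with its own input, FOXF2, another target, also passed with miR-4307-3p, at 0.41 (limma adjusted p = 0.0267), and it is named after its values were seen.

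The test of the difference between the enrichments, taken as miR-4307-3p minus miR-3118-3p, passed for 4 of the 79 genes. Of the 79, 1 was higher (1.27%) and 3 were lower (3.80%), beside 4.73% and 2.86% of all genes. It was lower for FRMD6 (-1.51 ± 0.20, limma adjusted p = 0.000191), LIN7C (-1.18 ± 0.22, 0.00248) and MOB4 (-1.03 ± 0.25, 0.0152), and higher for ANKRD1 (1.69 ± 0.25, 0.000459). The median over the 79 genes was -0.13, against -0.02 over all genes. Second probes gave -1.54 ± 0.16 for FRMD6 and -1.08 ± 0.31 for LIN7C, both past the threshold. For MOB4, further probes gave -0.36, -0.73 and -0.95, the last of them past it, and the call was lost without miR-4307-3p input replicate 2 (-0.96) and with the mean of the probes (-0.77). The count of 4 was 11 without miR-3118-3p pull-down replicate 1. It was 10 on blocking each pull-down with its own input and 12 with array weights, and the shares of all genes in these settings are not given here.

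**Figure D4:**
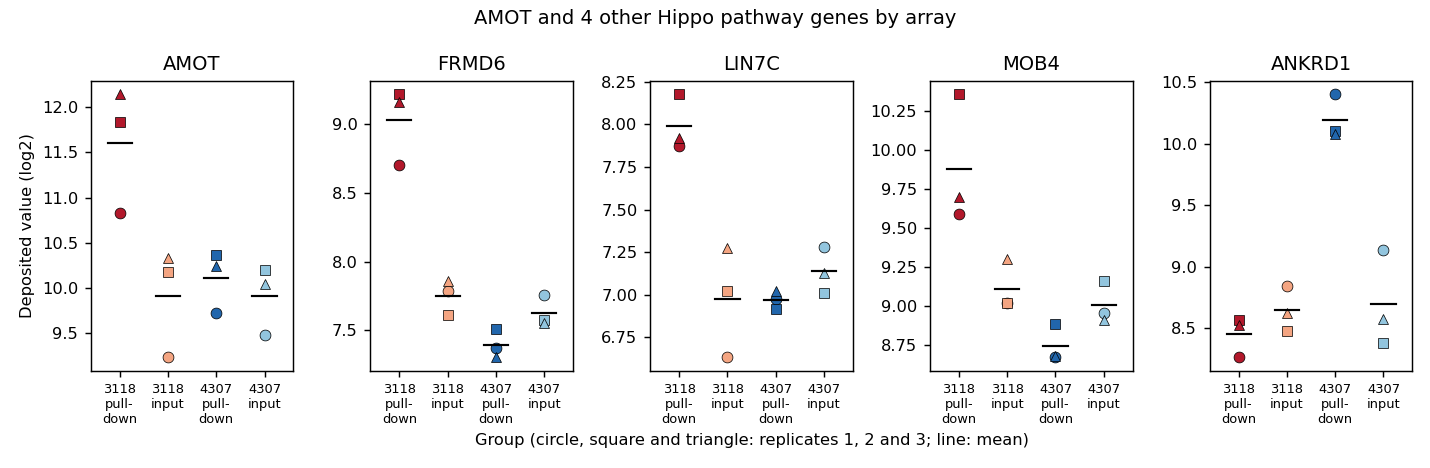
Deposited log2 values on the 12 arrays of AMOT and of the 4 wider pathway genes whose enrichment differed between the microRNAs. Points are arrays, shaped by replicate, lines are means of 3, and each panel has its own vertical axis. FRMD6, LIN7C and MOB4 are highest in the miR-3118-3p pull-down, whereas ANKRD1 is highest in the miR-4307-3p pull-down, where it lies between 10.08 and 10.40.

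Across the 12 arrays, STK3 followed AMOT most closely among the other measured genes (Pearson's r 0.85), then YAP1 (0.73) and STK4 (0.66). LATS2, AMOTL2 and MOB1A had r of 0.08, 0.02 and 0.01. The 5 genes outside the group most like AMOT were INTU, a ciliogenesis protein (0.98), MATR3, a nuclear matrix RNA-binding protein (0.97), ALG11, a glycosylation enzyme (0.95), NUP133, a nuclear pore protein (0.95) and FBN2, an extracellular matrix fibrillin (0.95). These r are descriptions over 12 arrays that share the 4 groups, and they were picked as the highest of all genes. Without miR-3118-3p pull-down replicate 1 they were 0.99, 0.97, 0.96, 0.95 and 0.97. Their differences with miR-3118-3p were 0.52 ± 0.13 for INTU, 0.84 ± 0.17 for MATR3, 0.71 ± 0.15 for ALG11, 0.53 ± 0.17 for NUP133 and 0.78 ± 0.24 for FBN2. With miR-4307-3p they lay between -0.03 and 0.26. As for AMOT, replicate 1 was the lowest array in all 4 groups for INTU, NUP133 and FBN2, but not for MATR3 or ALG11. INTU and ALG11 were dim, at 5.78 to 6.18 and 5.93 to 6.30 in the miR-3118-3p input.

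**Figure D5:**
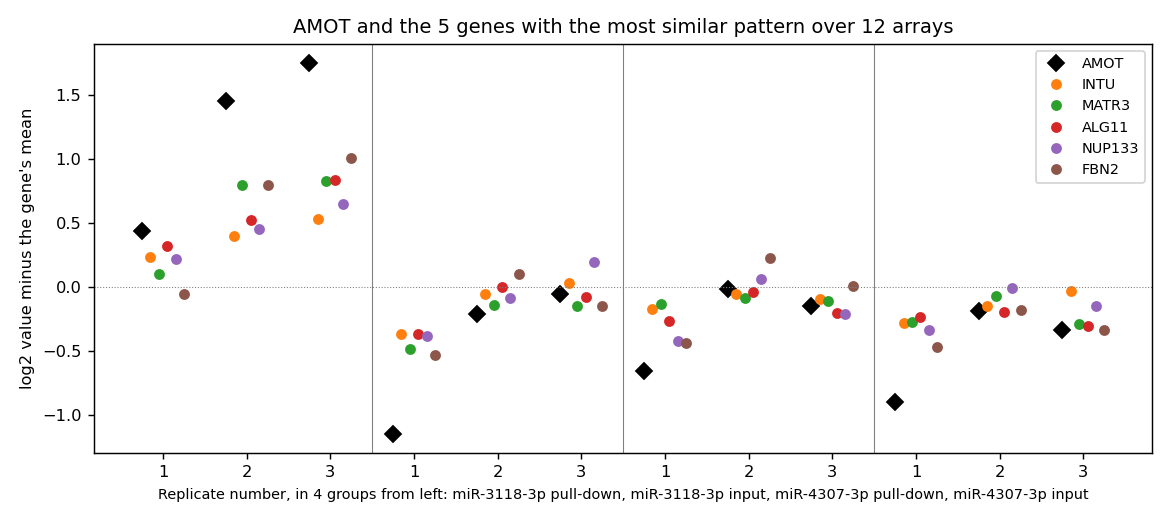
Log2 values of AMOT and of the 5 genes with the highest Pearson correlation to it, each minus its own mean over the 12 arrays. The horizontal axis gives the replicate number in each of the 4 groups. AMOT runs from -1.15 in miR-3118-3p input replicate 1 to 1.76 in miR-3118-3p pull-down replicate 3.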

How the data were processed

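The deposited series matrix holds log2 values. Per the submitters' processing notes the authors used lumi 2.2.1; how values were normalized is not stated in the sources used here. A second table, not normalized, was left out because its 12 value columns match no label. Of 15025 probes, 12354 have 1 symbol in the platform annotation, 2 have several and 2669 are not listed; 2 symbols were updated. The probe with the highest mean stood for a gene. limma 3.58.1 (R 4.3.3; lmFit, eBayes) was fitted to 4 group means with 8 residual degrees of freedom, two-sided, with Benjamini-Hochberg adjustment over 9581 genes, and was tested on simulated data. Figures used matplotlib 3.10.9 in Python 3.11.15.

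The genes and lists were chosen with earlier results of these data known. Genes named by rule are all members, up to 4 rises and 4 falls per list and pull-down, preset pathway genes where measured, and the 5 genes most correlated with AMOT. Outside this rule, PDCD10, FOXF2, MAP4K4, STRN4, PRKCI, TJP1, USP9X, PARD6A, YWHAH, YWHAQ and WWP2 were named after their values were seen.

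Titles give the replicate numbers. With each group's mean subtracted, pull-down and input arrays of one number correlated at 0.204, 0.342 and 0.286 for miR-4307-3p. For miR-3118-3p they correlated at 0.344, 0.0736 and 0.476. The numbers were taken as pairs for miR-4307-3p and not for miR-3118-3p. These ranges overlap, and both the highest value, 0.476, and the lowest, 0.0736, are those of miR-3118-3p. The correlations alone therefore do not settle that choice. The planned fit carried no replicate block for either microRNA, so its p-values for miR-4307-3p leave out the pairing taken for that microRNA. Alternatives were both replicate blocks, quantile and cyclic loess normalization, array weights, the spread of 6 arrays, probe handling, leaving out the dimmest 25% of genes, and leaving out each array.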

Additional observations from a re-analysis of the deposited data

Results flagged for a closer look

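The enrichment of 4 wider pathway genes differed between the microRNAs by the limma test of the difference itself, miR-4307-3p minus miR-3118-3p. Of the 79 measured, 1 was higher (1.27%) and 3 were lower (3.80%), beside 4.73% and 2.86% of all genes. The lists were drawn up with earlier results of these data known, so these calls are a description. ANKRD1, a YAP target gene, differed by 1.69 ± 0.25 (adjusted p = 0.000459), where miR-3118-3p gave -0.20 and miR-4307-3p gave 1.50. FRMD6, an upstream activator, differed by -1.51 ± 0.20 (adjusted p = 0.000191), with 1.28 and -0.23. LIN7C, a polarity protein, differed by -1.18 ± 0.22 (adjusted p = 0.00248), with 1.01 and -0.17. MOB4, a STRIPAK subunit, differed by -1.03 ± 0.25 (adjusted p = 0.0152), with 0.77 and -0.27, and its probes did not all pass. The causes were not tested.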

How the results depend on the processing

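No value past the threshold changed sign in any of the 21 other settings. The pull-down counts of the 7 genes are a description, since the choice of the genes used these comparisons. Among the 7 genes, the count called with miR-3118-3p was 4, and 3 to 4 on leaving out each array. With miR-4307-3p it was 1, but 2 with either replicate block, 3 with array weights, 3 with the spread of the 6 arrays alone, and 0 to 2 on leaving out each array. For the difference between the enrichments it was 0, but 1 with the replicate block, 2 with the block within each microRNA, 1 with quantile normalization, 2 with array weights, 1 with the dimmest 25% of genes left out, and 0 to 2 on leaving out each array. For the wider lists the count with miR-3118-3p was 24, but 10 with the spread of the 6 arrays alone and 14 to 36 on leaving out each array. With miR-4307-3p it was 5, but 10 with the block within each microRNA, 24 with array weights, 13 with the spread of the 6 arrays alone and 3 to 12 on leaving out each array. For the difference it was 4, but 10 with the block within each microRNA, 12 with array weights and 3 to 11 on leaving out each array. Between the inputs, 0 were called by limma in every setting run. Shares of all genes called in the other settings are not given here, so nothing is read from the shifts in these counts. The replicate number was not taken to pair the miR-3118-3p arrays, a choice that the correlations alone do not settle. With the number as a block the wider count was 30, or 34 within each microRNA. The lowest array weight, 0.198, fell on the miR-3118-3p pull-down's replicate 1, and the cause of the other shifts was not tested. Single values of the wider genes named by rule newly passed the threshold in 61 cases and lost it in 70. LATS2 moved to -0.05 with miR-3118-3p and to 0.47 for the difference with array weights, and MOB1A to 0.06 with miR-3118-3p with the mean of probes. The values carry no detection call, so how far AMOTL2 and LATS2 stood over background is unknown. The same holds for other dim genes, among them MPDZ, NEDD4, ITCH, INTU and ALG11.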
